A study of Homo sapiens with 14 samples.

Results

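The genes described here are 42 DNA replication and S phase genes, a list fixed by name: the S phase genes used to score the cell cycle in single-cell work (Seurat), given by symbol. All 42 were found in the count table, which lists 62703 genes, and their levels were measured in the prostate cancer lines LNCaP, 22Rv1 and PC3. Cells received 1.5 µM SEL120-34A, which blocks the kinases CDK8 and CDK19 of the Mediator complex, or the solvent dimethylsulfoxide (DMSO) for 3 days. LNCaP and 22Rv1 had 3 libraries in each arm and PC3 had 1. LNCaP cells depend on androgens and respond to enzalutamide, 22Rv1 cells respond to androgens but resist enzalutamide, and PC3 cells lack the androgen receptor. Each line is a single established line without an introduced allele. The study states that its experiments had at least 3 biological replicates unless noted. The labels do not say whether these replicates came from separate cultures. P-values therefore measure only the spread between these libraries, which may be technical.

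Replication starts when origins are licensed. In G1 phase CDC6 and CDT1 load the ring-shaped MCM2 to MCM7 helicase onto DNA, and at the start of S phase CDC45 and the GINS complex join the ring and switch it on. Polymerases then copy the strands with the sliding clamp PCNA, ribonucleotide reductase and thymidylate synthase supply the nucleotides, and histone chaperones repack the new DNA. Transcription of most of these genes rises at the G1/S border under the E2F factors, so that their summed mRNA is used as a sign of how many cells are in or near S phase. In a bulk library, fewer cells in S phase and less mRNA per cell cannot be told apart.

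Total counts ranged from 246063 to 909176 per library, and the treated 22Rv1 libraries were all shallower than their controls. The lines carried the markers of their labels. KLK3, which encodes prostate-specific antigen, was at a mean of 1218 CPM (read counts of a gene scaled to a common library size by the TMM method) in LNCaP DMSO, 20.4 in 22Rv1 DMSO and 7.62 in PC3 DMSO, whereas VIM, the filament protein vimentin, was at 1262 CPM in PC3 DMSO and at means of 29.1 and 21.4 CPM in DMSO in LNCaP and 22Rv1. The leukocyte markers PTPRC and CD3E had 0 counts in all libraries. Of the fibroblast markers, COL1A2 and DCN had none and COL1A1 had 3 to 85 counts per group.

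Promoters of 7 genes with results described below are shown first, because E2F and CCAAT motifs are the usual letters of S phase promoters. Each line is the 250 bases before a transcript start (RefSeq, GRCh38.p14), 5′ to 3′ on the gene's strand. Capitals mark E2F cores (TTTCCCGC, TTTCGCGC, TTTGCCGC or TTTGGCGC), the NF-Y motif CCAAT and the CHR element TTTGAA, on either strand.
RRM2 (+ strand of chr2:10122489-10122738): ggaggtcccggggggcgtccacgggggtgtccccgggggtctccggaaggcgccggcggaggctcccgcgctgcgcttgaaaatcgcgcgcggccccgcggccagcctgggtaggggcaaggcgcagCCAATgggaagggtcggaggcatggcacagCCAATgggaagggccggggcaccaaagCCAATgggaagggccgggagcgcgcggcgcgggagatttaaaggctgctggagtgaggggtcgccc
CENPU (- strand of chr4:184734097-184734346): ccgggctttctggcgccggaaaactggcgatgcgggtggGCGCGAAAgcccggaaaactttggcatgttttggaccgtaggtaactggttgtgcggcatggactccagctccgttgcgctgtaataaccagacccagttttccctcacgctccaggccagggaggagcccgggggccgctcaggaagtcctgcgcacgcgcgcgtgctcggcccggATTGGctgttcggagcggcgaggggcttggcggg
MCM7 (- strand of chr7:100101398-100101647): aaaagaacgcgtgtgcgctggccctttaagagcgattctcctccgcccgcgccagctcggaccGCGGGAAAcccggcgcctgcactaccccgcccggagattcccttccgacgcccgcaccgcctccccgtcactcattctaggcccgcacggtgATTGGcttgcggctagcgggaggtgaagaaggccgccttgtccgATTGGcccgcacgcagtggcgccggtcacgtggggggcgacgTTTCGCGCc
TIPIN, first start (- strand of chr15:66386718-66386967): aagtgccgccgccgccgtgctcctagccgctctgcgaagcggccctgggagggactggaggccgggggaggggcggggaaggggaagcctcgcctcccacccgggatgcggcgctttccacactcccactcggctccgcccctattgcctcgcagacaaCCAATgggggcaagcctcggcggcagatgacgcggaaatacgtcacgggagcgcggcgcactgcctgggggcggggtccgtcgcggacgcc
TIPIN, second start (- strand of chr15:66356686-66356935): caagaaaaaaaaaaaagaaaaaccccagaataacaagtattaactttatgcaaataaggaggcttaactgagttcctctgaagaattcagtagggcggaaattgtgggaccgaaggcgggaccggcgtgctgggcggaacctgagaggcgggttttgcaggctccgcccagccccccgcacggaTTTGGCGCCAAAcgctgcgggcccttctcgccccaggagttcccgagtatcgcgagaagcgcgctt
FEN1 (+ strand of chr11:61792661-61792910): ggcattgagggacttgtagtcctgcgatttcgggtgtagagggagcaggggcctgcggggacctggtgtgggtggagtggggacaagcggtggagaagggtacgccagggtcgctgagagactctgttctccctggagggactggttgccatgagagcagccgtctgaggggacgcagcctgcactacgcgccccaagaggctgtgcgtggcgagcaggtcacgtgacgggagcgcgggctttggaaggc
PCNA (- strand of chr20:5126623-5126872): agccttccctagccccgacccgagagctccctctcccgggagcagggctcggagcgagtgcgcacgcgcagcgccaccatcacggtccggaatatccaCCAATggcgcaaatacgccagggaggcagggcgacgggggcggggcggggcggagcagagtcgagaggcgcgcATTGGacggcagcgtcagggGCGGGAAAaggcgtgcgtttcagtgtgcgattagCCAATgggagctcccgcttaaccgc
RRM1 (+ strand of chr11:4094435-4094684): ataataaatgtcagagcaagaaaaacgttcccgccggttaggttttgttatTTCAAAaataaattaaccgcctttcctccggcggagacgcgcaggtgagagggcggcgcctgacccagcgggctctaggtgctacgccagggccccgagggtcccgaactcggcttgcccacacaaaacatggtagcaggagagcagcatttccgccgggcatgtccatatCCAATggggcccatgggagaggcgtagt
RRM2 held 3 CCAAT motifs within 123 bases of the start and no E2F core. CENPU held 1 E2F core and 1 CCAAT. MCM7 held 2 of each, 1 E2F core lying 9 bases before the start. TIPIN held 1 CCAAT and no E2F core at its first start, and at the second the E2F cores of both strands overlapped in 1 palindrome. FEN1 held none of the motifs. PCNA held 1 E2F core among 3 CCAAT motifs, and RRM1 held 1 CCAAT and 1 CHR. The further starts in the table for RRM2, MCM7 and PCNA, not shown, held CCAAT and no E2F core. UNG, also not shown, had no motif at 1 start and an E2F core, CCAAT and CHR at the other.

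Of the 42 genes, 34 had at least 1 promoter in the RefSeq table. MCM4, MCM5, POLD3, DSCC1, ATAD2, WDR76, CCNE2 and E2F8 had none there. Counting a gene when any of its 300-base windows (250 before and 50 after the start) held the motif, 21 of the 34 genes (61.8%) had an E2F core, against 3.99% of the 27305 genes in the table and 7.20% of the 5611 genes that were also tested for expression. CCAAT was found in 26 (76.5%), against 39.7% and 44.1%. CHR was found in 3 (8.82%), against 18.2% and 12.1%. These are letter matches and not mapped binding sites.

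The first question was how the lines differ at rest. In DMSO the genes stood lower in LNCaP than in 22Rv1. Their summed level was 3165, 3081 and 3442 CPM in the LNCaP libraries and 4806, 4503 and 4812 CPM in the 22Rv1 libraries, and 3051 CPM in the PC3 library. The LNCaP and 22Rv1 libraries did not overlap.

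Of the 42 genes, 33 had enough counts to be tested. For 19 of them the level was lower in LNCaP (adjusted p below 0.05, edgeR), which is 57.6% beside 25.0% of the 7086 genes tested. One gene, MCM6, was higher, beside 24.0% of all genes. The log2 difference was below 0 for 27 (81.8%) beside 51.6% of all genes, and the median difference was -0.59 beside -0.030 over all genes.

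The licensing and helicase genes carried much of this, with 9 of 11 lower. MCM7, a subunit of the helicase ring, was at 204 ± 8.66 CPM (SD, n = 3) in LNCaP and 555 ± 59.1 in 22Rv1 (log2 difference -1.44, SE 0.151, adjusted p = 1.74e-10). MCM4 was at 123 ± 17.1 and 264 ± 51.2 CPM (-1.08, SE 0.182, adjusted p = 4.53e-06). MCM6, another subunit of the same ring, went the other way at 60.1 ± 7.0 CPM in LNCaP and 37.8 ± 5.89 in 22Rv1 (0.68, SE 0.239, adjusted p = 0.0179). That call was lost with library totals as the only scaling, without the low-count filter, by DESeq2, and without LNCaP DMSO replicate 2 or 22Rv1 DMSO replicate 3 (adjusted p = 0.0553 and 0.131).

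Larger differences lay outside the helicase. UNG, which cuts uracil out of DNA, was at 102 ± 11.7 CPM in LNCaP and 338 ± 43.5 in 22Rv1 (-1.72, SE 0.155, adjusted p = 3.17e-12). DTL, the substrate receptor of a ubiquitin ligase that degrades the licensing factor CDT1, was at 17.4 ± 4.36 CPM in LNCaP and 57.8 ± 6.75 in 22Rv1 (-1.73, SE 0.299, adjusted p = 6.90e-06). RFC2, a subunit of the clamp loader, was at 16.9 ± 7.88 and 56.7 ± 5.38 CPM (-1.75, SE 0.305, adjusted p = 7.57e-06). In contrast, the clamp PCNA did not pass the test (-0.17, 95% interval -0.46 to 0.12). RRM2, the small subunit of ribonucleotide reductase, was at 360 ± 17.6 CPM in LNCaP and 280 ± 59.0 in 22Rv1 and did not pass (0.35, adjusted p = 0.0948), but did so without LNCaP SEL120-34A replicate 3 or 22Rv1 DMSO replicate 3 (adjusted p = 0.0323 and 0.0492).

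WDR76, a WD-repeat protein, was the most one-sided gene. It had 0 counts in all 6 LNCaP libraries, where a count of 0 allows up to 1.62 CPM over the DMSO group taking 3 counts as the floor. The 22Rv1 DMSO libraries held 9, 10 and 15 counts (17.7, 18.7 and 17.9 CPM), and the treated ones 5, 5 and 2. In DMSO it was therefore at least 11.1-fold higher in 22Rv1. PC3 had 9 counts in DMSO and 6 with SEL120-34A.

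**Figure D1:**
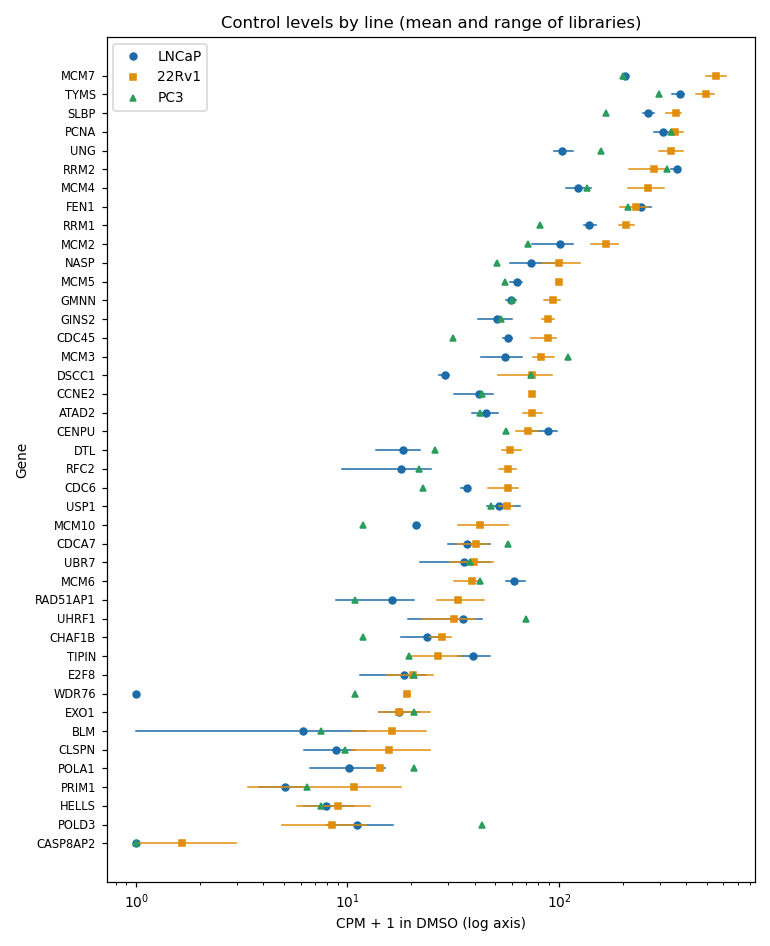
Level of the 42 genes in DMSO libraries, as CPM + 1 on a log axis (x) by gene (y). Symbols are group means, lines span the 3 libraries of LNCaP (blue circles) and 22Rv1 (orange squares), and PC3 (green triangles) is 1 library. LNCaP symbols lie left of 22Rv1 for most genes, WDR76 is at 0 CPM in LNCaP, and MCM6 is at 60.1 CPM in LNCaP against 37.8 in 22Rv1.

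The second question was how SEL120-34A acts on these genes in LNCaP. RRM2 and CENPU fell, no gene rose, and most of the others stood lower in the treated libraries without passing the test. Their summed level was 2066, 2114 and 2750 CPM in the treated libraries, below all 3 DMSO libraries (3081 to 3442). Treated replicate 3 stood nearest to the controls. Relative to the DMSO mean, the median over the 33 tested genes was -0.50, -0.44 and -0.15 (log2) in treated replicates 1, 2 and 3.

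Among the 33 genes, 2 were called lower (6.06%), beside 0.776% of all genes tested, and 0 were called higher, beside 1.99%. At an unadjusted p below 0.05, 8 were lower (24.2%, beside 5.63%) and 0 were higher, a direction not counted over all genes at this level. None of these genes was called higher by DESeq2 or limma. The log2 fold change was below 0 for 31 (93.9%, beside 49.5%). In 16 genes (48.5%, beside 10.7%) every treated library lay below every control, and in 0 every treated library lay above (beside 8.76%). The median log2 fold change was -0.38, against 0.00076 over all genes, and it was -0.46 with all 42 genes and no filter.

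**Figure D2:**
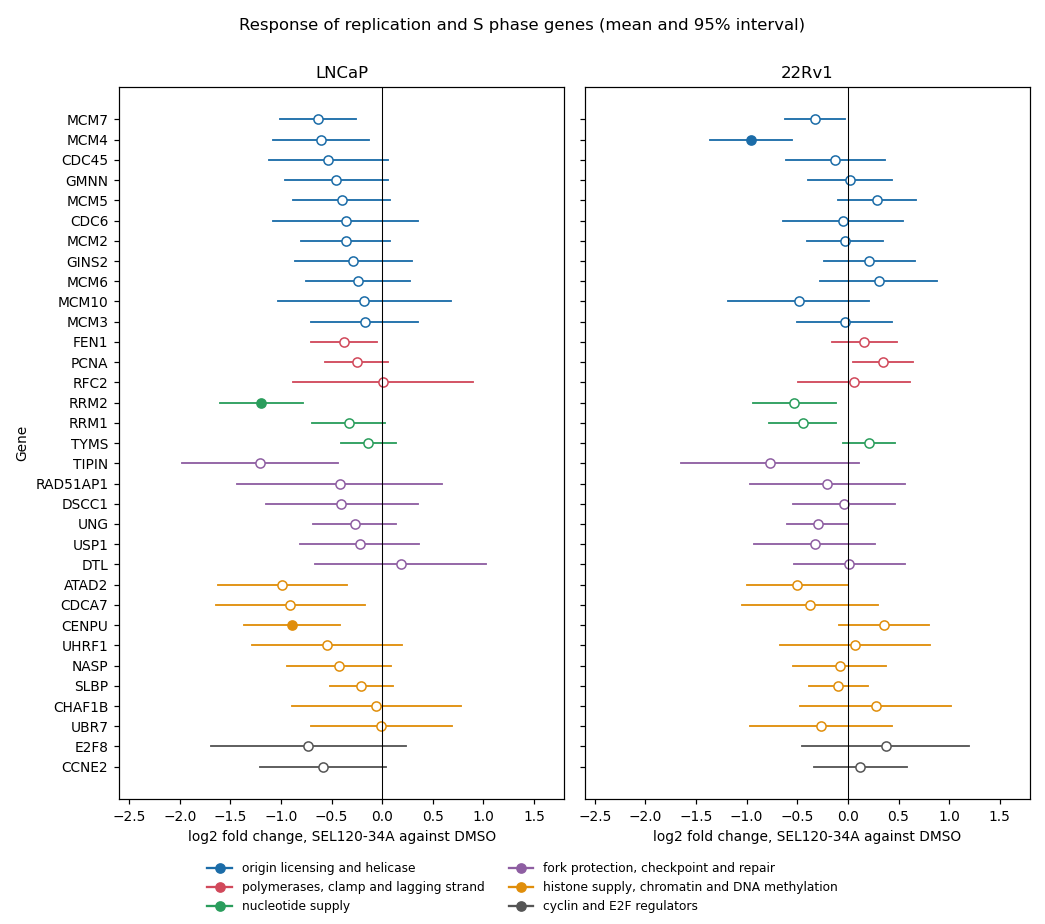
Log2 fold change of SEL120-34A against DMSO (x) for the 33 genes tested (y) in LNCaP (left) and 22Rv1 (right), coloured by role. Points are estimates, lines 95% intervals, and filled points have an adjusted p below 0.05. In LNCaP 31 points lie below 0 with RRM2 and CENPU filled, and in 22Rv1 19 lie below 0 with MCM4 filled.

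In nucleotide supply, RRM2 (ENSG00000171848.16, chromosome 2, 10120698 to 10211725, + strand) stood at 339, 372 and 368 CPM in LNCaP DMSO and at 101, 94.9 and 241 with SEL120-34A. The groups did not overlap, and treated replicate 3 stood well above the other treated libraries. The log2 fold change was -1.19 (SE 0.202, adjusted p = 1.62e-04), a level 0.437 of the control. RRM1, the large subunit of the same enzyme, was at 132, 131 and 148 CPM in DMSO and 89.7, 103 and 122 with SEL120-34A. These groups did not overlap either, but the fold change of -0.33 (SE 0.179) did not pass (adjusted p = 0.423). For TYMS, thymidylate synthase, it was -0.14 (adjusted p = 0.735). Exons of ENOSF1 lie on the opposite strand at the 3′ end of TYMS, and whether counting used strand was not given in the sources used here, so their reads may be mixed.

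All 11 licensing and helicase genes had a fold change below 0 in LNCaP, from -0.64 to -0.17, and none was called. MCM7 (chromosome 7, 100092233 to 100101940, - strand) was at 197, 202 and 214 CPM in DMSO and 66.3, 136 and 165 with SEL120-34A. The groups did not overlap, and the fold change of -0.64 (SE 0.186) missed the threshold by little (adjusted p = 0.0505). It passed without LNCaP SEL120-34A replicate 3 (-0.91, adjusted p = 0.00842), and also without replicate 2 of 22Rv1 DMSO or of 22Rv1 SEL120-34A. In all, MCM7 passed in 8 of 23 alternative settings. Its fold change over them ran from -0.91 to -0.42, with adjusted p up to 0.34. MCM4 was at 120, 107 and 141 CPM in DMSO and 58.5, 106 and 71.8 with SEL120-34A (-0.61, SE 0.234, adjusted p = 0.196). Its highest treated library came within 2 CPM of its lowest control. MCM5, MCM6, CDC45 and GMNN, the inhibitor of licensing, also had no overlap between arms (-0.40, -0.24, -0.53 and -0.45). The remaining members of the role, MCM2, MCM3, MCM10, CDC6 and GINS2, lay between -0.36 and -0.17. MCM5 stood at 66.2, 57.6 and 64.3 CPM in DMSO and 39.0, 46.1 and 52.8 with SEL120-34A.

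CENPU, a protein of the inner kinetochore that is made in S phase, was the other gene that fell (ENSG00000151725.12, chromosome 4, 184694085 to 184734130, - strand). Its level was 93.0, 73.3 and 96.5 CPM in DMSO and 42.9, 37.9 and 57.0 with SEL120-34A, with no overlap (-0.89, SE 0.237, adjusted p = 0.0269), a level 0.539 of the control. Its 3′ end overlaps an exon of PRIMPOL on the opposite strand. The call was lost when LNCaP DMSO replicate 1 or 3 was left out, when replicate 1 or 2 of the treated LNCaP libraries was, at equal depth, and by DESeq2 and limma.

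Of the other chromatin genes, ATAD2, a bromodomain ATPase, was at 50.7, 44.5 and 37.8 CPM in DMSO and 19.5, 21.7 and 23.2 with SEL120-34A. The arms were well apart on few counts, 5 to 11 in the treated libraries, and the fold change of -0.98 (SE 0.316) did not pass (adjusted p = 0.0942). CDCA7, a partner of the remodeller HELLS, was at 32.4, 28.8 and 46.1 CPM in DMSO and 23.4, 10.8 and 23.2 with SEL120-34A (-0.91, SE 0.364, adjusted p = 0.219). SLBP, which binds the stem-loop of histone mRNAs, differed by -0.20 (adjusted p = 0.604), and the histone chaperone NASP by -0.43 (adjusted p = 0.487). CHAF1B and UBR7 were at -0.058 and -0.010, with 95% intervals of -0.89 to 0.78 and -0.71 to 0.69. UHRF1, which reads newly copied DNA for methylation, was at -0.54 (adjusted p = 0.554).

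TIPIN, which protects stalled forks together with TIMELESS, had the lowest fold change of the 33 genes tested, next to RRM2. It was at 32.4, 36.7 and 46.1 CPM in DMSO and 11.7, 13.6 and 21.1 with SEL120-34A, on 3 to 10 counts in the treated libraries (-1.21, SE 0.382, adjusted p = 0.0875). DTL was 1 of the 2 genes above 0 (0.18, adjusted p = 0.906). The other was RFC2 (0.0082). DSCC1, UNG, USP1 and RAD51AP1 of the same role lay between -0.42 and -0.22, and the arms of DSCC1 and UNG did not overlap.

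Among polymerase and clamp genes, FEN1, the nuclease that trims Okazaki fragments, was at 228, 228 and 271 CPM in DMSO and 164, 152 and 226 with SEL120-34A (-0.38, SE 0.163, adjusted p = 0.269). The highest treated library lay just under the lowest control. PCNA differed by -0.25 (SE 0.154, adjusted p = 0.503), and its arms overlapped. Both regulators of the G1/S switch had values below 0, cyclin E2 (CCNE2) -0.59 (adjusted p = 0.405) and the repressor E2F8 -0.73 (adjusted p = 0.536).

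The other 9 genes had too few counts for the test. EXO1, a 5′ to 3′ exonuclease of mismatch repair and end resection, had 11, 5 and 15 counts in LNCaP DMSO and 1, 0 and 4 with SEL120-34A. HELLS had 4, 2 and 7 counts in DMSO and 0, 0 and 1 with SEL120-34A. Both showed no overlap between arms, and neither passed without the filter (adjusted p = 0.166 and 0.421). Each of the others, POLA1, PRIM1, POLD3, CLSPN, BLM, CASP8AP2 and WDR76, had at most 59 counts over the 12 LNCaP and 22Rv1 libraries. CASP8AP2 had 1.

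**Figure D3:**
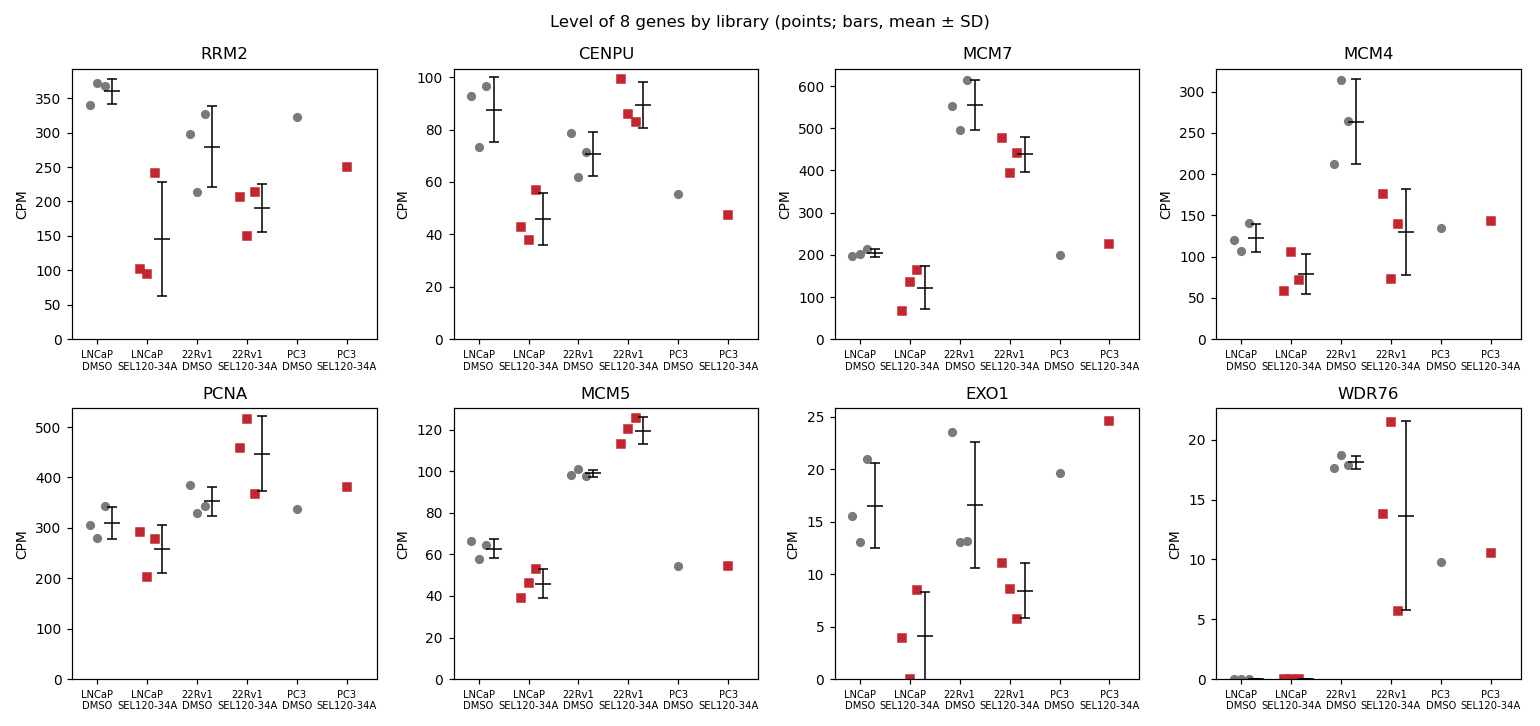
Level in CPM (y) of 8 genes in each library, grouped by line and arm (x). Grey circles are DMSO, red squares SEL120-34A, and bars mean ± SD where there are 3 libraries, cut at 0. RRM2 falls from 339 to 372 CPM to 94.9 to 241 in LNCaP, CENPU and MCM5 have treated libraries below the controls in LNCaP and above them in 22Rv1, and WDR76 is at 0 in LNCaP.

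The third question was whether 22Rv1 cells respond alike. Here MCM4 fell, no gene rose, and the genes as a group stood near the rest of the transcriptome. Their summed level was 4806, 4503 and 4812 CPM in DMSO and 4556, 4180 and 4313 with SEL120-34A, so the arms overlapped. As a share of counts outside mitochondrially encoded genes (a scale chosen after seeing the data), the arms were apart, at 0.551% to 0.562% in DMSO and 0.456% to 0.507% with SEL120-34A. They were also apart as a share of all counts (0.499% to 0.519% and 0.396% to 0.448%). Without the 5 genes of highest level the summed level was 2654 to 2701 CPM in DMSO and 2210 to 2527 with SEL120-34A.

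In 22Rv1 1 of the 33 genes was called lower (3.03%), beside 1.55% of all genes, and 0 higher, beside 4.15%. At an unadjusted p below 0.05, 4 were lower (12.1%, beside 7.99%) and 1, PCNA, was higher. The share of all genes higher at this level was not counted. No gene was called higher by DESeq2 or limma. The fold change was below 0 for 19 (57.6%, beside 49.6%), with a median of -0.039 against 0.0025 over all genes. That median was 0.048 without 22Rv1 SEL120-34A replicate 2 and 0.0056 without 22Rv1 DMSO replicate 2. In 5 genes (15.2%, beside 10.5%) all treated libraries lay below the controls, and in 3 (9.09%, beside 12.4%) above them. The share with 22Rv1 arms apart was thus close to that of all genes in both directions.

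MCM4 (ENSG00000104738.19, chromosome 8, 47960185 to 47978160, + strand) was at 212, 314 and 265 CPM in 22Rv1 DMSO and 176, 73.0 and 140 with SEL120-34A. The arms did not overlap, and treated replicate 2, the shallowest library, was lowest. The log2 fold change was -0.95 (SE 0.200, adjusted p = 0.00181), a level 0.517 of the control. Its partners in the ring did not follow as a set. MCM7 was at 554, 496 and 614 CPM in DMSO and 477, 395 and 442 with SEL120-34A, without overlap (-0.32, SE 0.148, adjusted p = 0.216). MCM2 and MCM3 were at -0.028 and -0.032, and MCM5 and MCM6 at 0.28 and 0.30 (adjusted p = 0.451 and 0.624). MCM5 stood at 98.2, 101 and 97.8 CPM in DMSO and at 113, 120 and 126 with SEL120-34A, every treated library above the controls.

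RRM1 was at 192, 225 and 206 CPM in DMSO and 138, 146 and 168 with SEL120-34A, without overlap (-0.45, SE 0.165, adjusted p = 0.105). RRM2 was at 298, 213 and 327 CPM in DMSO and 207, 150 and 214 with SEL120-34A (-0.53, SE 0.203, adjusted p = 0.126). The highest treated RRM2 library lay within 2 CPM of the lowest control. It passed without LNCaP SEL120-34A replicate 3 or 22Rv1 DMSO replicate 2 (adjusted p = 0.0307 and 0.0431). TYMS stood above its controls in all 3 treated libraries (0.21, adjusted p = 0.395).

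PCNA was at 385, 329 and 343 CPM in 22Rv1 DMSO and 458, 515 and 368 with SEL120-34A. The arms overlapped in 1 treated library (0.35, SE 0.146, adjusted p = 0.169). UNG was at 332, 298 and 384 CPM in DMSO and 284, 223 and 305 with SEL120-34A, with overlap (-0.30, SE 0.148, adjusted p = 0.267). ATAD2 was at 66.8, 71.1 and 82.3 CPM in DMSO and 46.9, 64.4 and 48.5 with SEL120-34A, without overlap (-0.50, SE 0.249, adjusted p = 0.266). TIPIN was at 33.4, 18.7 and 25.0 CPM in DMSO and 11.0, 8.58 and 22.8 with SEL120-34A, on 2 to 8 treated counts (-0.77, SE 0.436, adjusted p = 0.350). Among the genes tested, the treated libraries of MCM4, MCM7, RRM1 and ATAD2 all lay below the controls in both lines. So did those of EXO1, which had too few counts for the test (12, 7 and 11 counts in 22Rv1 DMSO and 4, 2 and 2 with SEL120-34A). The share of all genes with treated libraries below the controls in both lines was not counted. In single lines that share was 10.7% in LNCaP and 10.5% in 22Rv1.

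The difference between the responses was tested directly, as the LNCaP fold change minus that in 22Rv1. None of the 33 genes passed in either direction, beside 0.466% of all genes more negative in LNCaP and 0.268% more positive. DESeq2 and limma also called 0. At an unadjusted p below 0.05, 5 genes were more negative in LNCaP (15.2%, beside 6.08%) and 0 more positive. The share of all genes more positive at this level was not counted. The difference was below 0 for 26 genes (78.8%, beside 51.3%), and its median was -0.35 against -0.016 over all genes.

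CENPU came nearest. Its treated libraries lay below the controls in LNCaP and above them in 22Rv1, where it was at 78.5, 61.8 and 71.6 CPM in DMSO and 99.2, 85.8 and 82.7 with SEL120-34A. In 22Rv1 alone the fold change of 0.36 (SE 0.221) did not pass (adjusted p = 0.407). The difference was -1.25 (SE 0.325, 95% interval -1.91 to -0.59, adjusted p = 0.0557). It passed in 2 of 21 alternative settings, without LNCaP SEL120-34A replicate 3 (adjusted p = 0.0424) and with the replicate number as a block. Over all of them the adjusted p reached 0.312. The others below an unadjusted p of 0.05 were PCNA (-0.60, adjusted p = 0.239), FEN1 (-0.54, 0.353), RRM2 (-0.67, 0.371) and MCM5 (-0.68, 0.388). For RRM2 the 95% interval ran from -1.25 to -0.081. Without LNCaP SEL120-34A replicate 3, the treated LNCaP library nearest to the controls, its difference was -1.29 and passed (adjusted p = 0.00673). The RRM2 difference passed in only this 1 of 22 alternative settings. It ran from -1.29 to -0.40 over them, with adjusted p up to 0.721.

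**Figure D4:**
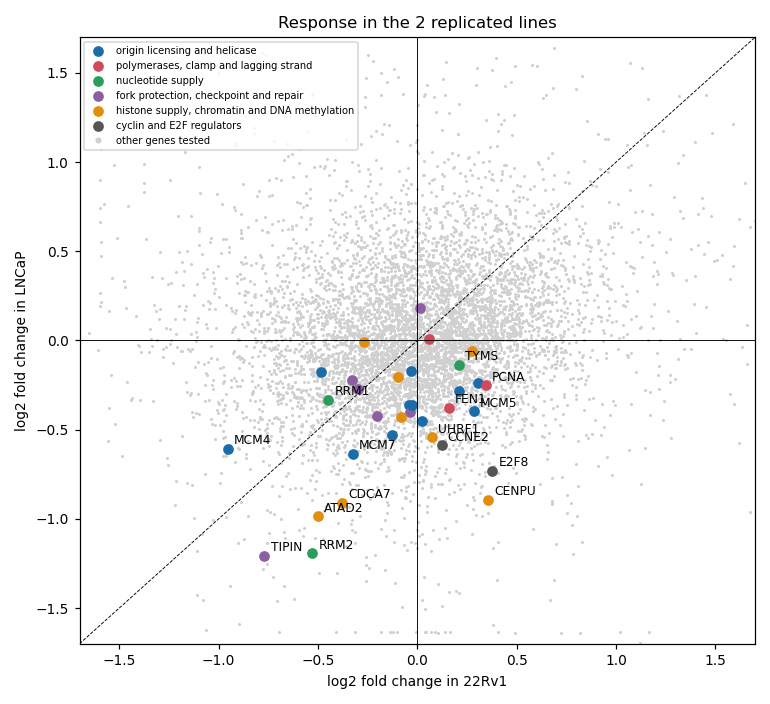
Log2 fold change of SEL120-34A against DMSO in 22Rv1 (x) and LNCaP (y). Coloured points are the 33 genes by role, small grey points other genes tested within the axes, and the dashed line marks equal change. Most of the 33 lie below the dashed line (26 have a more negative value in LNCaP), MCM4 lies above it, and CENPU lies at -0.89 in LNCaP and 0.36 in 22Rv1.

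PC3 had 1 library per arm, so its ratios have no replicate check. The summed level was 3051 CPM in DMSO and 3193 with SEL120-34A. Among the 32 genes with at least 10 counts in both libraries, 0 were 2-fold lower (beside 0.762% of all genes) or 2-fold higher (beside 0.945%), and 14 had a ratio below 0 (43.8%, beside 50.0%). The median log2 ratio was 0.064 over all 42 genes, against -0.054 over all genes with a count. CENPU was at 55.5 CPM in DMSO and 47.3 with SEL120-34A, MCM7 at 200 and 226, and MCM4 at 135 and 144. RRM2 was at 322 CPM (296 counts) in DMSO and 251 CPM (143 counts) with SEL120-34A. ATAD2 had the lowest ratio of the 32 genes (-0.84) and CDC45 the highest (0.64). POLD3, a subunit of DNA polymerase delta, fell outside this count with 39 counts in DMSO and 8 with SEL120-34A.

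**Figure D5:**
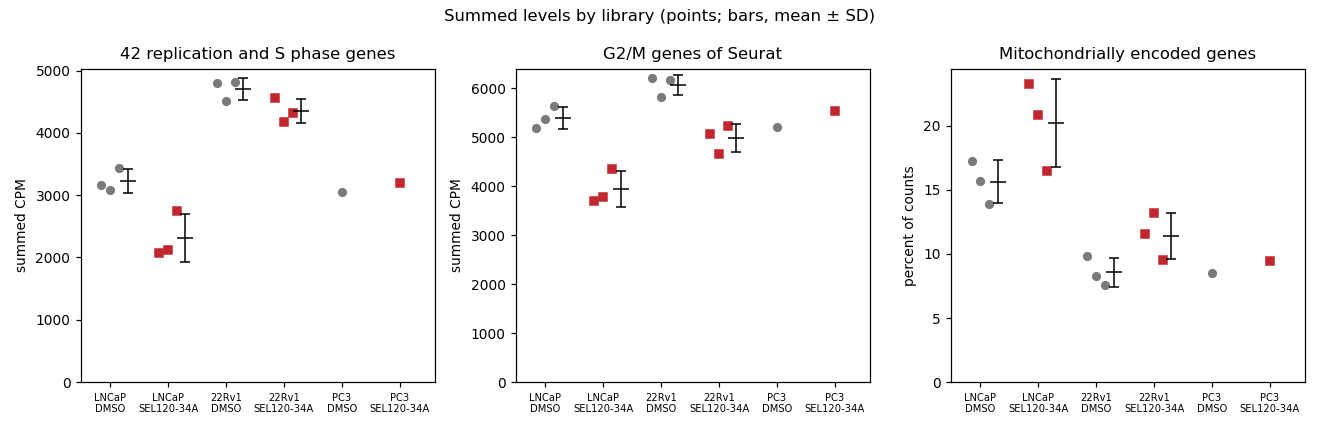
Summed level in each library (points), with mean ± SD where there are 3 libraries, by line and arm (x): CPM of the 42 genes (left), CPM of the G2/M genes (middle) and percent of counts from mitochondrially encoded genes (right). In LNCaP the 42 genes go from 3081 to 3442 CPM in DMSO to 2066 to 2750 with SEL120-34A, while the mitochondrial share goes from 13.9% to 17.3% to 16.5% to 23.3%.

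Other measures moved with the arms. Mitochondrially encoded genes took 17.3%, 15.7% and 13.9% of counts in LNCaP DMSO and 23.3%, 20.8% and 16.5% with SEL120-34A. In 22Rv1 they took 7.60% to 9.82% and 9.52% to 13.2%. The LNCaP libraries with the highest mitochondrial share were treated replicates 1 and 2, which also had the lowest summed level of the 42 genes. The part of the mitochondrial share in the result was not tested beyond the values that follow. With mitochondrial genes removed before the fit (added after seeing the data) the median in LNCaP was -0.38 and 3 genes were called lower, RRM2, CENPU and MCM7. As a share of the counts outside mitochondrial genes, the 42 genes took 0.338% to 0.383% in LNCaP DMSO and 0.237% to 0.300% with SEL120-34A.

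Replication genes outside the list were counted for comparison, from a list of 61 written from general knowledge of which 45 were tested. In LNCaP 1 was called lower (beside 0.776% of all genes) and 0 higher (beside 1.99%). There 37 had a fold change below 0, and the median was -0.27. The called gene was TK1, cytosolic thymidine kinase, at 314, 317 and 289 CPM in DMSO and 203, 220 and 201 with SEL120-34A, without overlap (-0.53, SE 0.145, adjusted p = 0.0335). This call was lost when any of the 6 LNCaP libraries was left out (adjusted p from 0.0829 to 0.116) and by DESeq2. Without treated replicate 3 of LNCaP 3 other genes of the list were called lower, and without any of the other 5 LNCaP libraries 0 were. The next by adjusted p were PCLAF, a PCNA-binding protein (-0.66, adjusted p = 0.115), DBF4, the activator of the CDC7 kinase (-0.90, 0.125), and GINS3 (-1.41, 0.145). In 22Rv1 0 were called, beside 1.55% of all genes lower and 4.15% higher. There 30 had a fold change below 0, and the median was -0.086. TK1 was at 0.24 in 22Rv1 (adjusted p = 0.391). In DMSO 14 of the 45 were called lower and 6 higher in LNCaP than in 22Rv1 (median -0.21), beside 25.0% and 24.0% of all genes.

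G2/M genes of the same source were counted in the same way. Of 45 tested, 7 were called lower and 1 higher in LNCaP (median -0.46), and 4 lower and 0 higher in 22Rv1 (median -0.23). Of all genes, 0.776% were called lower and 1.99% higher in LNCaP, and 1.55% and 4.15% in 22Rv1. With library totals as the only scaling, 11 of the G2/M genes were lower and 0 higher in LNCaP and 7 lower in 22Rv1. DESeq2 and limma each called 3 lower in LNCaP, and in 22Rv1 limma called 1 and edgeR at equal depth called 2. The LNCaP count of lower genes was 2 when control replicate 3 or treated replicate 2 of LNCaP was left out, and 3 when treated replicate 1 was. The 22Rv1 count was 0 without 22Rv1 SEL120-34A replicate 2, 1 without 22Rv1 SEL120-34A replicate 1 or 22Rv1 DMSO replicate 3, 2 without 22Rv1 DMSO replicate 2, and 6 when treated replicate 3 of LNCaP was left out. Their summed level was 5182 to 5630 CPM in LNCaP DMSO and 3692 to 4357 with SEL120-34A, and 5832 to 6202 and 4661 to 5225 CPM in 22Rv1. In DMSO 18 of these 45 genes were called lower and 2 higher in LNCaP than in 22Rv1 (median -0.38). Of all genes, 25.0% were lower and 24.0% higher. The count of lower G2/M genes was 14 by DESeq2 and 11 by limma. CDKN1A, which encodes the cyclin-dependent kinase inhibitor p21, rose in LNCaP from 155, 113 and 88.1 CPM to 199, 249 and 184 (0.85, adjusted p = 0.00801), a call lost without control replicate 3 or treated replicate 2 of LNCaP (adjusted p = 0.139 for each) and by limma (adjusted p = 0.236). In 22Rv1 its change of 0.68 did not pass (adjusted p = 0.265). MYC differed by 0.18 in LNCaP and 0.21 in 22Rv1 (adjusted p = 0.617 and 0.415).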

How the data were processed

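RNA was barcoded per sample at reverse transcription and the 3′ ends of transcripts were sequenced from the pool (BRB-seq). The authors aligned and counted reads with STARsolo on GRCh38.p13 with GENCODE release 43 and deposited raw counts per gene. Whether molecular identifiers were collapsed was not given in the sources used here, so floors cover counting error only. A second deposited file holds log2 CPM values of 9638 genes. TMM factors over 14 libraries with a prior count of 2 gave those values to within 5e-14.

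Genes were tested with edgeR 4.0.16 (R 4.3.3) on the 12 LNCaP and 22Rv1 libraries in 1 fit with 4 group means. The fit used TMM normalization, the low-count filter (7086 genes) and the quasi-likelihood F-test with 8 residual degrees of freedom. P-values were adjusted by the Benjamini-Hochberg method across the genes tested, and calls were made at 0.05. Levels are CPM with TMM factors over all libraries. PC3 was described by log2 ratios. The fit was tested on simulated counts. Positions are from GENCODE release 44, and 41 of the 42 identifiers had the same version there.

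Members, lists and motifs were chosen with earlier results of these data known. Values in every library are given for genes called in a response to SEL120-34A, and for the 8 of smallest adjusted p per line. The labels do not say whether equal replicate numbers pair the libraries, and the fit reported used no pairing. Other settings were a replicate block, scaling by DESeq2 size factors or by totals, 2 other filters, each line alone, PC3 added, equal depth, DESeq2 1.42.0, limma 3.58.1 on the deposited log2 values, and each library left out. Removal of mitochondrial genes was added after seeing the data.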

Additional observations from a re-analysis of the deposited data

Results flagged for a closer look

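For MCM5 and CENPU all treated libraries lay below the controls in LNCaP and above them in 22Rv1. In 22Rv1 neither change passed on its own (adjusted p = 0.451 and 0.407), and in LNCaP only that of CENPU did (0.0269). Treated libraries lay below the controls for 10.7% of all genes in LNCaP, and above them for 12.4% in 22Rv1. The share of all genes with both was not counted. The difference of the effects (LNCaP minus 22Rv1, log2) was -0.68 for MCM5 (adjusted p = 0.388) and -1.25 for CENPU (adjusted p = 0.0557), and neither passed the test of the difference in edgeR with all libraries and no block. CENPU did pass without LNCaP SEL120-34A replicate 3 (adjusted p = 0.0424) and with the replicate number as a block (adjusted p = 0.0465). None of the 33 genes tested passed in the fit reported, and groups of 3 are too small to test for single outlying libraries.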

How the results depend on the processing

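In LNCaP 2 of the genes were called, and the count was 1 at equal depth (246063 counts per library), 1 with DESeq2 and 0 with limma, where RRM2 and CENPU had adjusted p = 0.0632 and 0.0625. The count was 3, with MCM7 added, with library totals only, without the low-count filter or with PC3 added. Leaving out each library gave 1 to 3. CENPU was lost without LNCaP DMSO replicate 1 or 3 or treated LNCaP replicate 1 or 2, and MCM7 was gained without LNCaP SEL120-34A replicate 3, 22Rv1 DMSO replicate 2 or 22Rv1 SEL120-34A replicate 2. In 22Rv1 1 gene was called, and the count was 2 with library totals only or at least 10 counts in every library (RRM1 added), 2 in each line alone (RRM2 added) and 0 with limma. Leaving out each library gave 1 to 2, the latter without LNCaP SEL120-34A replicate 3 or 22Rv1 DMSO replicate 2. For the difference the count of 0 became 2 without LNCaP SEL120-34A replicate 3 (range 0 to 2). The 20 calls between the lines in DMSO became 14 at equal depth, 16 with DESeq2 and 17 with limma. They became 11 with at least 10 counts in every library, where only 16 of the genes were tested. With a library left out there were 17 to 22. The median in 22Rv1 was -0.18 with library totals only, where the median of all genes was -0.14, and -0.13 with at least 10 counts in every library. Leaving out each library gave -0.11 to 0.048 (0.048 without 22Rv1 SEL120-34A replicate 2). In LNCaP the median stayed between -0.52 and -0.33 in all alternatives. Except for these settings, the cause of a change was not tested.

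Libraries of the same replicate number had little correlation of their deviations (-0.048 to 0.12). Not every library correlated best with its own number, so whether the numbers pair the libraries is not settled. With the replicate number as a block the counts were 3 in LNCaP (MCM7 added), 2 in 22Rv1 (RRM2 added), 1 for the difference (CENPU, adjusted p = 0.0465) and 22 between the lines. Low depth limits the test to abundant genes: 9 of the 42 were not tested.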
